A study of Mus musculus with 48 samples.

Results

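The libraries compared here were made from subcutaneous inguinal white adipose tissue (sWAT, labelled iWAT) of ad-lib fed mice and sampled at opposite ends of the light period, at 8 PM and at 8 AM. They were taken by their column names in the count table, AL1 to AL4 at each time, which gave 4 libraries a side and 8 of the 48 libraries of the series. Both groups were C57BL/6 mice by their labels, C57BL/6J in the methods, aged 8 months, with free access to regular chow and no transgene or drug. They were males, housed with the light on from 8 AM to 8 PM. The series holds 6 times of day, 4 h apart, in ad-lib mice and in mice on TAN feeding, in which food was offered only from 9 to 11 PM and from 5 to 7 AM. The comparison asks how the fat depot of a freely fed mouse differed between the start of the night and the start of the day.

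Before any result, the time labels need a statement. The 12 deposited group means of FPKM matched the count columns of the same label in 12 of 12 groups, so the deposited files share 1 set of times. An expression list published beside them carries the same 48 library names, and each of its 48 columns matched the count column of the same animal name 12 h apart, including all 8 used here. Times below are those of the sample labels and the count table, and under the other set every direction below would be read from 8 AM to 8 PM. Which set is right was not tested.

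Total counts ranged from 18797614 to 23218154 in the 8 PM libraries and from 15651928 to 29354303 in the 8 AM libraries, and 19977 of 54532 listed genes were tested. Adipocyte markers summed to between 8159 and 34670 CPM (counts relative to the scaled library size) in the 8 libraries, so adipocyte RNA was abundant, although the series text names the stromal vascular fraction. Nothing in the labels says whether 1 mouse gave each library, so p-values measure only a spread between libraries. In the main fit that spread was estimated from all libraries of the series, not from the 8 compared alone.

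The circadian clock of mammalian cells is a feedback loop of transcription. BMAL1 (encoded by Arntl) pairs with CLOCK or NPAS2, binds E-box sequences and switches on the Per and Cry genes, whose proteins return to the nucleus and shut the pair down. The same pair drives the nuclear receptors REV-ERBα and REV-ERBβ (Nr1d1 and Nr1d2), which repress Arntl and Npas2 through ROR elements, and the proline and acidic amino acid-rich leucine zipper factors DBP, TEF and HLF, which act on D-box sequences. In peripheral tissues of nocturnal rodents the activator arm is usually highest near the start of the light and the Per and D-box arm near its end.

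The single gene called between the 2 times was a clock gene, and 9 of the 24 clock genes tested had groups that did not overlap. Nr1d2 was the 1 gene of 19977 that passed the test, which asked for a Benjamini-Hochberg adjusted p under 0.05 from edgeR's quasi-likelihood fit and a change above 1 on the log2 scale, and the share of all genes called was 0.00501%. As lower at 8 PM, edgeR called 0 genes, DESeq2 12 and limma voom 1. With p under 0.05 left unadjusted in edgeR's fit, 207 genes had higher and 228 lower values at 8 PM past that fold. Of the 24 clock genes tested, 7 had all 4 libraries at 8 PM above all 4 at 8 AM, against 1.56% of all genes, and 2 had all 4 below, against 1.27%. An unadjusted p under 0.05 was found in 7 clock genes with higher and 2 with lower values at 8 PM, where the shares over all genes were 3.15% and 3.85%. In bulk tissue, fewer cells of a type and less RNA per cell cannot be told apart. The genes with separate groups were Per2, Per3, Ciart, Nr1d2, Dbp, Tef and Hlf above, and Arntl and Npas2 below.

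Nr1d2 encodes REV-ERBβ, a heme-binding nuclear receptor that represses transcription, and it lies on the minus strand of chromosome 14, from 18204054 to 18239127 in GRCm38. Its level was 52.9, 45.7, 65.0 and 32.9 CPM in the 8 AM libraries 1 to 4 and 116, 134, 184 and 198 CPM in the 8 PM libraries. The lowest 8 PM library was thus above the highest 8 AM library. Nr1d2 rose by 1.68 ± 0.294 on the log2 scale (SE, n = 4 a side), with 0.0212 as the adjusted p (edgeR's quasi-likelihood test). The log2 change was 1.54 to 1.85 when 1 library was left out, but the adjusted p passed the threshold no longer without 8 AM library 1 (0.121), 8 AM library 4 (0.213), 8 PM library 3 (0.184) or 8 PM library 4 (0.154). It was 0.762 in a fit of the 8 libraries alone, where the other 40 libraries did not add to the estimate of the spread.

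Its paralog Nr1d1, which encodes REV-ERBα, was at 14.9 to 18.3 CPM at 8 AM and at 12.0 to 24.8 CPM at 8 PM, a log2 difference of 0.10 ± 0.519 (SE). The groups overlapped, with 2 of the 8 PM libraries below and 2 above the whole 8 AM range. Nr1d1 overlaps Thra on the other strand, which averaged 48.2 CPM, and since the strandedness of the libraries is not given in the sources used here, reads of the pair cannot be told apart. The receptor gene Rora, whose product activates through the same elements that REV-ERBs repress, had a log2 difference of 0.39 ± 0.339 and overlapping groups.

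In the activator arm, Npas2 had the largest log2 difference of the clock genes. It was at 11.3, 8.12, 3.39 and 9.31 CPM in the 8 AM libraries and at 0.530, 0.195, 0.256 and 0.174 CPM in the 8 PM libraries, the last from 14, 4, 6 and 4 counts. Each 8 AM library was thus several times above each 8 PM library. The log2 difference was −4.76 ± 0.951 with an adjusted p of 0.0651 in edgeR's quasi-likelihood test, which missed the threshold. DESeq2 gave an adjusted p of 1.18e-05 and limma voom 0.0356, and the edgeR value passed without 8 AM library 2 (0.0354) or 8 AM library 3 (0.0472). Leaving out another library gave edgeR values as high as 0.532.

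Arntl, the partner of both CLOCK and NPAS2, was at 23.7, 35.9, 25.3 and 44.1 CPM at 8 AM and at 20.4, 17.9, 14.9 and 8.04 CPM at 8 PM. The gap between the groups was narrow, from 20.4 to 23.7 CPM, and the log2 difference was −1.07 ± 0.36 (SE) with an unadjusted p of 0.00481 and an adjusted p of 0.71. Clock did not share this pattern of separate groups, at 64.0 to 131 CPM at 8 AM and 72.0 to 108 CPM at 8 PM (log2 difference −0.21 ± 0.273). Per length of transcript, in the authors' mean FPKM, Clock was at 7.44 and 6.46, Arntl at 4.22 and 2.02 and Npas2 at 1.65 and 0.06 at 8 AM and 8 PM.

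Among the repressors, Per2 was at 1.84, 8.69, 2.37 and 1.80 CPM at 8 AM and at 19.9, 17.1, 21.2 and 25.8 CPM at 8 PM. The groups did not overlap, and the highest 8 AM value, of library 2, stood apart from the other 3. The log2 difference was 2.51 ± 0.61 (SE), with an unadjusted p of 0.000188 and an adjusted p of 0.25 in edgeR's quasi-likelihood test, which became 0.0335 without that library.

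Per3 was at 29.8, 29.2, 6.02 and 12.3 CPM at 8 AM and at 52.4, 53.6, 79.8 and 116 CPM at 8 PM, with a log2 difference of 1.97 ± 0.552 (SE) and an adjusted p of 0.653. Ciart, which encodes the repressor CHRONO, was near the limit of detection, at 0 to 1.09 CPM at 8 AM and 1.27 to 2.39 CPM at 8 PM, and an antisense transcript over it averaged 1.84 CPM. Per1 was at 9.75 to 13.9 CPM at 8 AM and at 9.74 to 22.4 CPM at 8 PM, so that its groups overlapped. The cryptochromes Cry1 and Cry2 had log2 differences of −0.02 ± 0.256 and −0.05 ± 0.358, and their sign depended on the fit.

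The D-box activators were all higher in every 8 PM library than in any 8 AM library. Dbp was at 2.03, 10.8, 13.6 and 7.08 CPM at 8 AM and at 25.0, 32.9, 54.8 and 65.2 CPM at 8 PM. Its log2 difference was 2.40 ± 0.518 (SE), with an unadjusted p of 3.73e-05 and an adjusted p of 0.119 in edgeR's quasi-likelihood test (DESeq2 0.00192). When a library was left out, edgeR's adjusted p was 0.0718 to 0.748. Dbp overlaps Sphk2 on the other strand, which averaged 24.6 CPM.

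Tef was at 112, 105, 69.5 and 91.3 CPM at 8 AM and at 163, 207, 206 and 284 CPM at 8 PM. Hlf was at 12.7, 18.2, 12.0 and 16.4 CPM at 8 AM and at 20.3, 32.8, 44.6 and 55.1 CPM at 8 PM. Their log2 differences were 1.19 ± 0.348 and 1.37 ± 0.412 (SE), with an adjusted p of 0.683 for each in edgeR's quasi-likelihood test. Nfil3 (E4BP4), which represses from the same D-boxes, lay in the other direction, at 13.6 to 23.4 CPM at 8 AM and 7.24 to 19.3 CPM at 8 PM, with overlap (log2 difference −0.78 ± 0.417).

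The 15 clock genes whose groups overlapped had log2 differences from −0.78 to 0.51, and their lowest unadjusted p was 0.0707. Bhlhe40 and Bhlhe41, E-box repressors also known as DEC1 and DEC2, varied widely at 8 AM, from 12.6 to 151 CPM and from 6.33 to 28.7 CPM. Among the genes that set the stability of PER, Csnk1d and Btrc had smaller SEs. Csnk1d, the gene of casein kinase 1δ, was at 89.6 to 117 CPM at 8 AM and 96.9 to 120 CPM at 8 PM, with a log2 difference of −0.02 ± 0.143. Btrc, the ligase subunit for PER, had 0.11 ± 0.177.

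**Figure D1:**
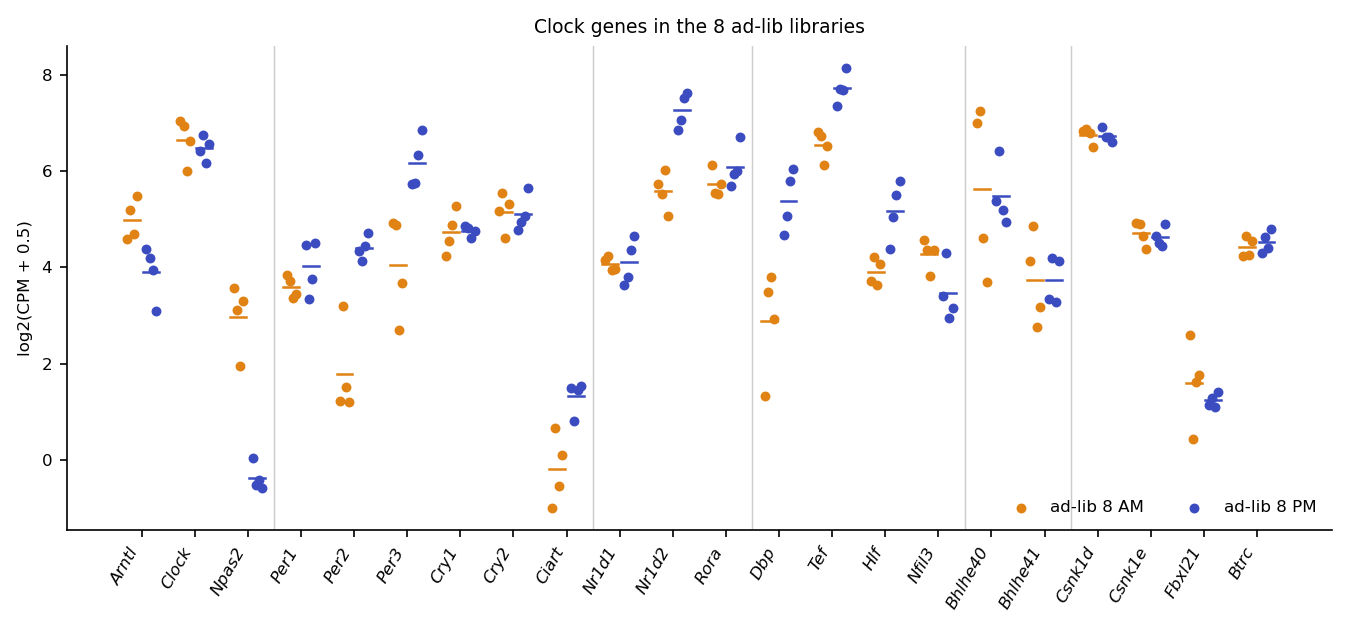
Level of 22 of the 24 clock genes in the 8 ad-lib libraries, as log2(CPM + 0.5) on the vertical axis. Each point is 1 library, orange for 8 AM and blue for 8 PM, the short lines are means of 4, and grey lines part activators, repressors, nuclear receptors, D-box factors, basic helix-loop-helix repressors, and kinases and ligases. In 9 genes the colours do not overlap, with blue above in 7 and below in Arntl and Npas2.

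The promoters of the genes with separate groups were read from RefSeq on GRCm38.p6, 250 bases before to 50 after each start, because members of the same arm lay on the same side at 8 PM. The table held 8 of these 9 genes (not Per2), with 10 windows. On both strands the E-box CACGTG, the D-box TTANGTAA and the ROR element ANTAGGTCA were searched, which cannot share their full length with each other, and 7.15%, 2.32% and 0.661% of all 32851 windows held them. Among the 8 genes, 2 held an E-box (Ciart and Tef), 1 a D-box (Per3) and 1 a ROR element (Arntl). Of the 15 other clock genes 10 were in the table, with 16 windows, and 3 held an E-box, 0 a D-box and 1 a ROR element. These are counts of genes with a match in any window, whereas the shares are of single windows. The 5 windows below show the called gene and 1 window for each gene with a match (Tef had an E-box in a second window too, which is not shown), from 5′ to 3′ on the gene's strand, with matches in capitals. They are chr14:18239057-18239356 (minus strand) for Nr1d2, chr7:113207261-113207560 (plus) for Arntl, chr3:95882179-95882478 (minus) for Ciart, chr4:151044616-151044915 (minus) for Per3 and chr15:81802423-81802722 (plus) for Tef.
Nr1d2: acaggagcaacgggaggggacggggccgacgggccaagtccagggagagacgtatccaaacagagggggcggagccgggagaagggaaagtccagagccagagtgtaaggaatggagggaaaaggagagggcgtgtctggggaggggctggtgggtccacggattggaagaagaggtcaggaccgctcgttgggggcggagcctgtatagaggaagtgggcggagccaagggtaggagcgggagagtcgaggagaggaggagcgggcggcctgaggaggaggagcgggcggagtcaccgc
Arntl: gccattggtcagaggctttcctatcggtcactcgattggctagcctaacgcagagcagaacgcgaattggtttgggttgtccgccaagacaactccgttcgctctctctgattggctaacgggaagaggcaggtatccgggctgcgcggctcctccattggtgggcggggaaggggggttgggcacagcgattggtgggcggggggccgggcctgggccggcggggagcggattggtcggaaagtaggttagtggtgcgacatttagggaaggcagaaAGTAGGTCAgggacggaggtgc
Ciart: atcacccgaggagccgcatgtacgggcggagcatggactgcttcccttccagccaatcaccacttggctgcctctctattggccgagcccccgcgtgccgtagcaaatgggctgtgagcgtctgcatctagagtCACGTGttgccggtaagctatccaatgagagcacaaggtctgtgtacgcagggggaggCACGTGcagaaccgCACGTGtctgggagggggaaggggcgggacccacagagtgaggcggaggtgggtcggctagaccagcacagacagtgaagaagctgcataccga
Per3: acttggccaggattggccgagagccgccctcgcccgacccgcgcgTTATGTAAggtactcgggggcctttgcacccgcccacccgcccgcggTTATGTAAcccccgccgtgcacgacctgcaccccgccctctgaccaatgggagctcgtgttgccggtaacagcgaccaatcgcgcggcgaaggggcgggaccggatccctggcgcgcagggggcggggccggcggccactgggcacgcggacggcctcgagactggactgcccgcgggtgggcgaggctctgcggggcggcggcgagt
Tef: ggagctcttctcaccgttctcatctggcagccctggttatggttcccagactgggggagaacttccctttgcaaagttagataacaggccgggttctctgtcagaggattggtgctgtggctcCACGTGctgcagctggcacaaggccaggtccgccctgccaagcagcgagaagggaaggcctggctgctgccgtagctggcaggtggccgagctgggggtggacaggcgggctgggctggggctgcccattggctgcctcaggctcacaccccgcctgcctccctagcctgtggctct
Ciart carried 3 E-boxes and Per3 carried 2 D-boxes in their windows, while the window of Nr1d2 held none of the 3 motifs. A match is a description of the letters, and a window without one says nothing of elements elsewhere.

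Over all genes, the 15 smallest p-values, listed after the values were seen, held 4 clock genes (Nr1d2, Npas2, Dbp and Per2), and 14 of the 15 had no overlap between the groups. Picking genes by a small p favours separate groups, which 1.56% of all genes had above and 1.27% below. Of the 15, 6 were higher and 9 lower at 8 PM. Fkbp5, the FK506-binding protein that glucocorticoids induce, was at 36.3, 31.9, 40.4 and 29.2 CPM at 8 AM and at 84.6, 93.1, 54.4 and 49.5 CPM at 8 PM. This gene of the stress hormone pathway thus had separate groups, with a log2 difference of 1.03 ± 0.249 (SE) and an adjusted p of 0.234 in edgeR's quasi-likelihood test (DESeq2 0.0431). Leaving out any library did not bring edgeR's adjusted p under the threshold (lowest 0.0961).

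Adcy5, an adenylyl cyclase that makes cyclic AMP, was at 102, 75.2, 39.8 and 98.2 CPM at 8 AM and at 22.2, 15.3, 15.9 and 32.0 CPM at 8 PM (log2 difference −1.89 ± 0.415, adjusted p 0.119). Dtx4 and Dtx2, members of the Deltex family of E3 ligases linked to Notch signalling, had log2 differences of −1.40 ± 0.314 and −1.28 ± 0.299, and Gfod2 had −1.26 ± 0.254 with an adjusted p of 0.0651. Srp72, a subunit of the signal recognition particle, was at 39.4 to 88.8 CPM at 8 AM and at a narrow 104 to 114 CPM at 8 PM (0.80 ± 0.171). Gm28661, an unprocessed pseudogene whose reads may be shared with a near-identical copy, had −1.99 ± 0.386 and overlapping groups.

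Bpgm, which makes 2,3-bisphosphoglycerate and is most abundant in red cells, was at 83.2, 42.2, 36.6 and 64.8 CPM at 8 AM and at 24.9, 31.5, 28.1 and 34.6 CPM at 8 PM (log2 difference −0.93 ± 0.203, adjusted p 0.119). All 5 erythrocyte markers had an unadjusted p under 0.05 (edgeR) with lower values at 8 PM, beside 3.85% of all genes. Their sum was 348 to 4019 CPM at 8 AM and 170 to 1263 CPM at 8 PM, with overlap. None of the 5 was called (lowest adjusted p 0.672 in edgeR's test). For Bpgm, the log2 difference was −0.52 with these markers as a covariate (adjusted p 0.861), −0.68 without 8 AM library 1 and −0.39 without both 8 AM libraries 1 and 4. With the same covariate, 0 genes were called in either direction (215 higher and 166 lower past the fold limit when p under 0.05 was left unadjusted), and Nr1d2 had a log2 change of 1.69 with an adjusted p of 0.0631.

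**Figure D2:**
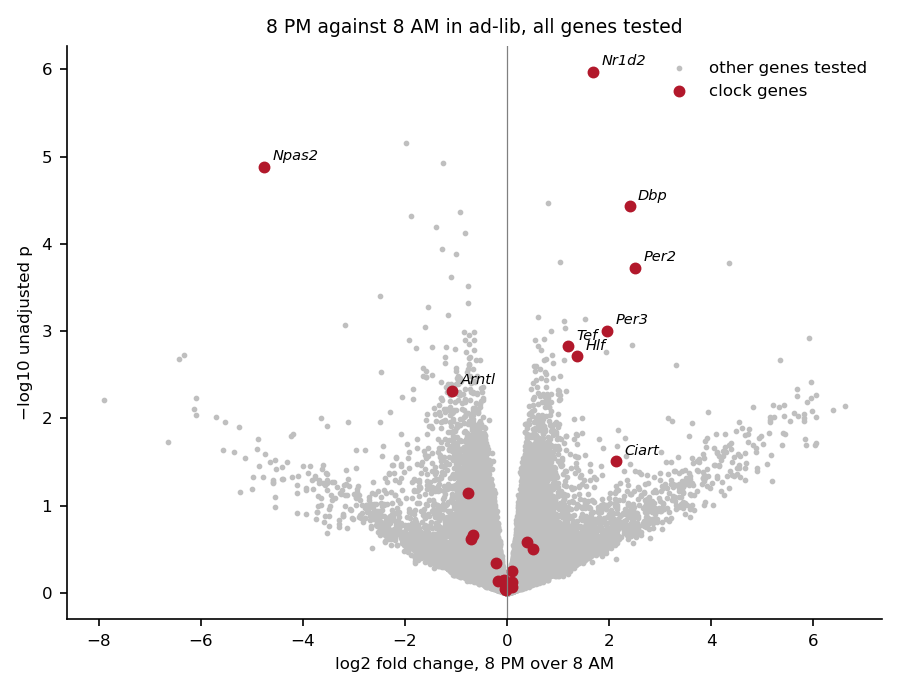
Each of the 19977 genes by its log2 fold change (horizontal axis, positive for higher at 8 PM) and the −log10 of its unadjusted p (vertical axis) in ad-lib mice, with the 24 clock genes in red and those under an unadjusted p of 0.05 named. Nr1d2 stands at the top, Npas2 is the clock gene farthest left, and Dbp, Per2 and Per3 lie on the right. The clock genes without a name lie low in the grey cloud.

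The other 4 times of the ad-lib mice placed these values on the day. Each of the 7 genes with higher values at 8 PM had its lowest mean of the 6 times at 8 AM, while only Per2 had its highest mean at 8 PM. The other 6 had it at 4 PM. All 7 were picked for lower values at 8 AM than at 8 PM, which favours a lowest mean at 8 AM. For Ciart the means at 8 AM and 12 PM were close, at 0.4633 and 0.4755 CPM. Nr1d2 was at 49.1 ± 13.4 CPM at 8 AM, 144 ± 21.3 at 12 PM, 216 ± 44.7 at 4 PM and 158 ± 39.3 at 8 PM (mean ± SD, n = 4). The ranges of neighbouring times from 12 PM to 8 PM overlapped.

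Dbp was at 8.37 ± 4.99 CPM at 8 AM, 102 ± 19.9 at 4 PM and 44.5 ± 18.7 at 8 PM (SD, n = 4), so that the 8 PM libraries were already below the 85.8 to 127 CPM of 4 PM. Ciart was at 6.48 ± 1.72 CPM at 4 PM and 2.06 ± 0.53 at 8 PM, with separate ranges. Per2 was at 17.1 ± 2.41 CPM at 4 PM, between 17.1 and 25.8 at 8 PM and 20.7 ± 5.37 at 12 AM, which did not differ beyond their spread.

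Npas2 had its highest mean at 8 AM, 8.04 ± 3.38 CPM, was at 0.302 ± 0.204 CPM at 4 PM and had its lowest mean at 8 PM, 0.289 ± 0.165 (SD, n = 4). Arntl was highest at 8 AM, 32.2 ± 9.59 CPM, and lowest at 4 PM, 9.93 ± 2.96 CPM. At 4 AM the libraries of several genes were spread widely, as in Npas2 from 0.147 to 9.48 CPM and in Dbp from 10.3 to 69.1 CPM. These levels are a description without a test across the day.

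**Figure D3:**
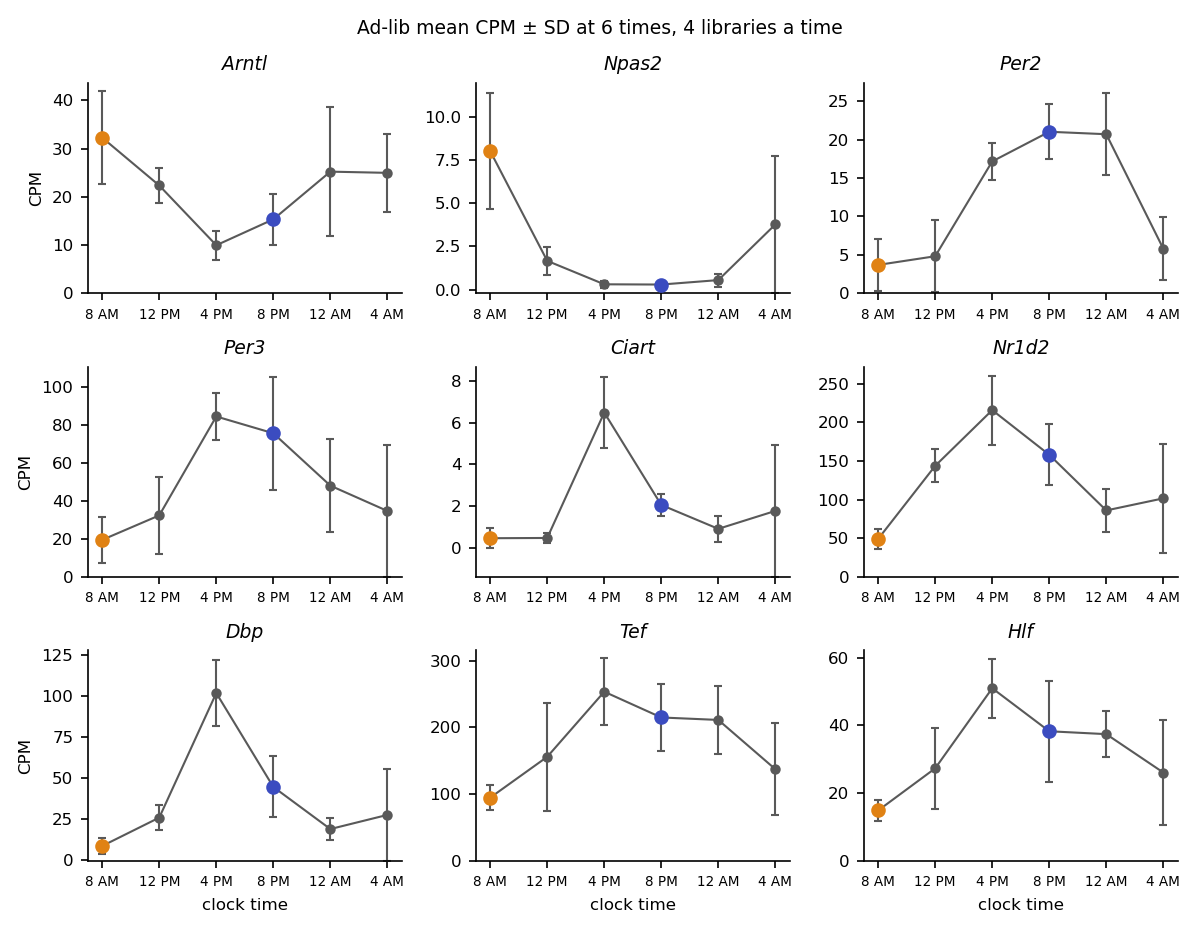
Mean CPM ± SD of 4 ad-lib libraries (vertical axes) at the 6 clock times (horizontal axes) of the 9 clock genes whose groups did not overlap, with 8 AM in orange and 8 PM in blue. The orange point is the lowest of its curve in the 7 genes from Per2 to Hlf, and the highest in Arntl and Npas2.

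Of the 14 genes of a list of clock outputs, 1 had all libraries higher at 8 PM and 0 had all lower, beside 1.56% and 1.27% of all genes. Wee1, a kinase that holds cells before mitosis and is driven through E-boxes, was at 4.07, 10.9, 10.7 and 10.2 CPM at 8 AM and at 17.8, 19.6, 17.3 and 23.4 CPM at 8 PM (log2 difference 1.12 ± 0.308, adjusted p 0.644). Nampt, which makes NAD+ from nicotinamide, was at 130 to 238 CPM at 8 AM and 191 to 357 CPM at 8 PM, with overlap. Noct, a deadenylase-like phosphatase, and Cdkn1a, the cell cycle inhibitor p21, had log2 differences of −0.97 ± 0.309 and −1.12 ± 0.374, both with overlap and an adjusted p of 0.71. Over the list, 2 members had an unadjusted p under 0.05 with higher and 3 with lower values, beside 3.15% and 3.85% of all genes. The median log2 difference was 0.24, beside −0.01 over all genes.

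Among metabolic and stress genes none was called. The 18 lists for lipid, sugar, mitochondrial, hormone, heat shock and matrix genes held 205 tested genes, of which 0 were called, 3 had an unadjusted p under 0.05 with higher values and 11 with lower values at 8 PM (3.15% and 3.85% of all genes), and 2 had no overlap (Fkbp5 above and Trib3 below). Trib3, a pseudokinase that binds AKT, had a log2 difference of −1.02. The 14 genes of de novo lipogenesis had a median log2 difference of −0.16, and Scd1, the desaturase that makes oleate, ranged from 9539 to 25980 CPM at 8 AM and from 9456 to 16990 CPM at 8 PM. The 10 collagens all had log2 differences below 0, with a median of −0.55 and 0 calls (edgeR), and the value of Col3a1, −0.48, was 0.01 without both 8 AM libraries 1 and 4 and 0.05 with the erythrocyte markers as a covariate. Lower values at 8 PM with an unadjusted p under 0.05 were also found for the lipolysis genes Adrb3 (−1.13), the β3-adrenergic receptor, and G0s2 (−1.32), which inhibits the lipase ATGL. All 7 adipocyte markers also had log2 differences below 0, with a median of −0.54, and their part in these values was not tested.

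Other lists gave counts of the same kind. Over all genes, 3.15% had higher and 3.85% lower values at an unadjusted p under 0.05 (edgeR). The log2 difference lay above 0 in 9896 of all 19977 genes. The 20 genes of cholesterol synthesis and uptake had a median log2 difference of −0.12, with 1 lower value at an unadjusted p under 0.05, and the 19 genes of glucose entry and glycolysis had −0.17 with none. The 9 adipokine genes had a median of −0.67, with 2 lower values at an unadjusted p under 0.05. For the 7 genes of fatty acid uptake the median was −0.54, with none. Fatty acid oxidation (11 genes tested), thermogenesis (10 genes) and heat shock (12 genes) had medians of 0.03, −0.25 and 0.08 and no member at an unadjusted p under 0.05. Proliferation genes lay above 0 in 10 of 11 cases, with a median of 0.47 and an adjusted p of at least 0.754. Markers of B cells (8 of 8, median 0.81), T cells (9 of 9, median 0.54) and lymph node stroma (6 of 6, median 0.77) lay above 0 as well, and their part in the proliferation values was not tested. Of 12 glucocorticoid targets tested, Fkbp5 alone had separate groups, and the median was 0.01.

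The 8 AM libraries differed among themselves more than the 8 PM libraries. Correlations of log2 CPM between libraries were 0.881 to 0.929 at 8 AM and 0.949 to 0.968 at 8 PM, and the median SD of log2 CPM over all genes was 0.756 and 0.402. In 84.1% of genes the SD was larger at 8 AM. Over the clock genes the medians were 0.407 and 0.399, near each other. The median SE of the log2 difference was 0.485 over all genes and 0.386 over the clock genes.

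Cell type markers also varied among the 8 AM libraries. B cell markers summed to 11.2 to 1563 CPM at 8 AM and 453 to 1724 CPM at 8 PM, and T cell markers to 29.8 to 1054 CPM and 379 to 985 CPM, with libraries 1 and 4 at 8 AM the lowest of the 8 for B and T cells. Those libraries had the most adipocyte marker counts, in a range of 8981 to 34670 CPM at 8 AM and 8159 to 22390 CPM at 8 PM. Skeletal muscle markers summed to 43.6 to 802 CPM at 8 AM and 9.15 to 738 CPM at 8 PM. Of 74 tested markers in 12 lists, 0 were called, and 1 had an unadjusted p under 0.05 with higher and 8 with lower values at 8 PM, beside 3.15% and 3.85% of all genes. Of these 8, 5 were the erythrocyte markers. With the lymphocyte markers as a covariate, Nr1d2 had a log2 change of 1.71 and an adjusted p of 0.0123. The part of these cells in the other results was not tested.

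**Figure D4:**
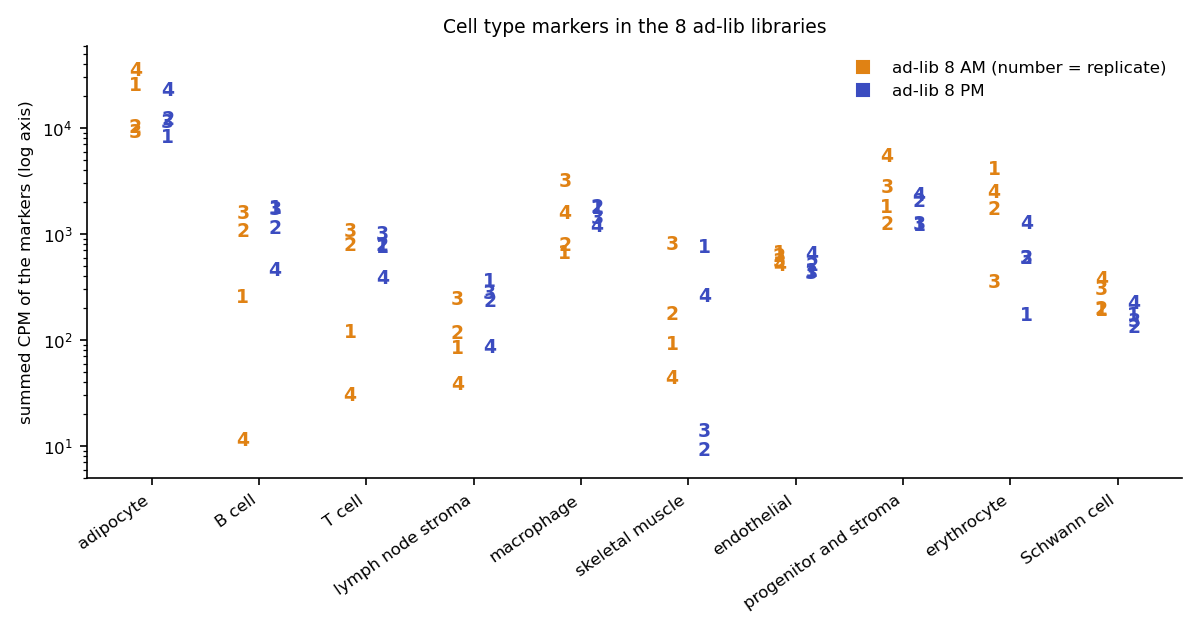
Summed CPM of the markers of 10 cell types (log axis) in the 8 ad-lib libraries, each drawn as its replicate number, orange for 8 AM and blue for 8 PM. The orange numbers 1 and 4 lie lowest for B and T cells and highest for adipocytes, and the orange numbers are more spread than the blue in most columns.

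In TAN mice the same 2 times differed in 343 genes with higher (1.72%) and 1240 with lower values at 8 PM (6.21%), and the 4 libraries at 8 PM were all above in 4.84% and all below in 12.1% of genes. Of the 24 clock genes, 5 rose and 4 fell there. The difference of the contrasts, ad-lib minus TAN, was called higher in 1148 genes (5.75%) and lower in 614 (3.07%), and among the clock genes in the 3 activators alone. The count was 6 and 0 with a covariate for a library property, given with its values below. That property was lower at TAN 8 PM than at TAN 8 AM or ad-lib 8 PM, but overlapped ad-lib 8 AM. In 5 of the 9 clock genes with separate groups in ad-lib, the TAN groups were separate in the same direction.

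Arntl was at 40.4 to 51.2 CPM at 8 AM and at 1.47 to 7.14 CPM at 8 PM in TAN mice, where it fell by 3.40 on the log2 scale, beside −1.07 in ad-lib. The difference was 2.33 ± 0.513, and edgeR's quasi-likelihood test gave 0.00641 for its adjusted p. Clock was at 105 to 155 CPM and 22.7 to 40.6 CPM in TAN mice, and the difference of 1.92 ± 0.389 had an adjusted p of 0.00456. Npas2 was at 4.66 to 8.32 CPM at 8 AM and had 0 counts in all 4 TAN libraries at 8 PM, so that no fold change is given.

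The called gene Nr1d2 did not pass the test of a difference between diets. It was at 33.4 to 45.4 CPM at 8 AM and 102 to 255 CPM at 8 PM in TAN mice (log2 change 2.05 ± 0.298), and the difference was −0.37 ± 0.406 with an adjusted p of 0.624. For Dbp, the log2 change was 4.02 ± 0.555 in TAN mice beside 2.40 ± 0.518 in ad-lib, and the difference of −1.62 ± 0.703 had an adjusted p of 0.127. Per2 was at 5.91 to 9.47 CPM at 8 AM and 8.54 to 22.4 CPM at 8 PM in TAN mice, and its difference missed the threshold (adjusted p 0.241).

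Outside the clock, the smallest p-values of the difference belonged to Lrrk2, Nbn, Far1os, Srp72 and Supt16 on the side higher in ad-lib and to Etfbkmt, Wdr83os, Sertad1, Nmnat3 and Atp5g1 on the other. Lrrk2, a large kinase of vesicle traffic, was at 13.1 to 74.9 CPM at 8 AM and 49.2 to 96.4 CPM at 8 PM in ad-lib, and at 59.7 to 83.2 CPM and 11.7 to 19.3 CPM in TAN mice. Srp72 was at 95.3 to 111 CPM at 8 AM and 56.0 to 70.6 CPM at 8 PM in TAN mice, the opposite of its order in ad-lib. Far1os had 0 counts in the 4 TAN libraries at 8 PM.

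TAN libraries 1 and 2 at 8 PM stood apart, with Cd8a at 411 and 403 CPM against 68.9 and 2.48 CPM in the other 2, and the median SD of log2 CPM at TAN 8 PM was 0.877. Without both, the difference was 3.31 for Arntl and 1.77 for Clock, and the calls were 1586 higher and 1278 lower. In a fit of the 16 libraries alone, edgeR called 0 genes in either direction (1598 higher and 1091 lower past the fold limit when p under 0.05 was left unadjusted), and the adjusted p was 0.0673 for Arntl and 0.0602 for Clock.

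The share of counts in TEC genes, an annotation class of transcripts still to be checked, was 0.0293 to 0.0394% at TAN 8 PM, below the 0.0822 to 0.0973% of TAN 8 AM and the 0.0807 to 0.104% of ad-lib 8 PM. At ad-lib 8 AM the share was 0.0325 to 0.1145%, a range that overlaps that of TAN 8 PM. With this share as a covariate, the calls of the difference were 6 higher and 0 lower (839 and 380 past the fold limit when p under 0.05 was left unadjusted). The calls of Arntl (2.72, adjusted p 0.088) and Clock (1.89, adjusted p 0.113) were lost in that fit. In the comparison within ad-lib, the covariate gave Nr1d2 a log2 change of 1.55 with an adjusted p of 0.0727.

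**Figure D5:**
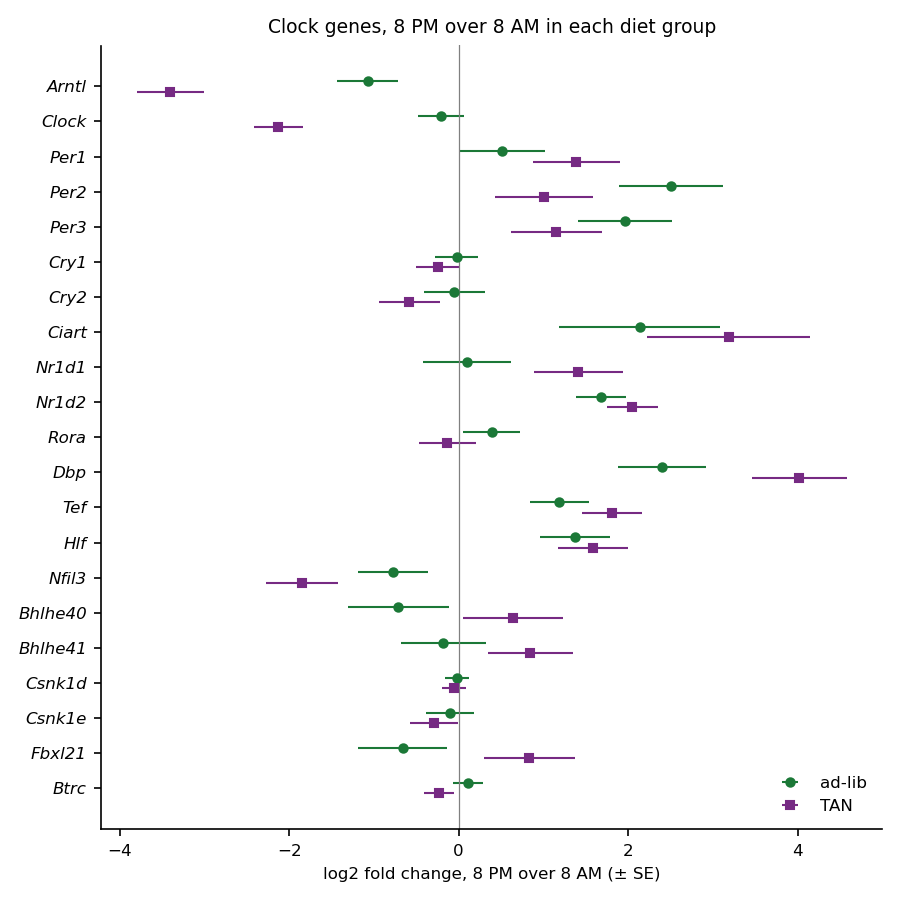
Log2 fold change of 8 PM over 8 AM ± SE (horizontal axis) for 21 clock genes in ad-lib (green circles) and TAN mice (purple squares), 4 libraries at each time, without Npas2, which had 0 counts at TAN 8 PM. The symbols are farthest apart for Arntl and Clock, lie within 1 log2 unit for Nr1d2, Tef and Hlf, and both lie near 0 for Csnk1d.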

How the data were processed

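RNA-seq counts per gene of 48 libraries were used as deposited by the authors, with 8 of them compared here. The submitters' processing notes name TopHat 1.3.3, DESeq2 1.20.0, limma and edgeR, with mm9, mm10 and GRCm38 as builds, and the order of steps and the strandedness are not given in the sources used here. Start and end were those of GENCODE M21 (GRCm38) for 98.1% of genes. FPKM are deposited by the authors as 1 mean per group, without replicates, and served only for levels per length and for the check of labels. No sample column was left unused (0).

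Genes with enough counts in the design were kept by edgeR's expression filter with a minimum count of 10 (19977 of 33438 with counts). Libraries were scaled by TMM, and edgeR 4.0.16 in R 4.3.3 fitted quasi-likelihood models to 12 groups of diet and time, with Benjamini-Hochberg adjustment over all tested genes and calls at an adjusted p under 0.05 and a log2 change above 1. The difference between diets was the interaction contrast. CPM use the TMM-scaled library sizes. Fits were tested on simulated data. DESeq2 1.42.0, limma 3.58.1 (voom), other filters, scalings and covariates, a replicate block, and leaving out each library were alternatives. Leaving out pairs of libraries, the erythrocyte covariate and the settings for counts of separate groups were chosen after seeing the data.

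Members and lists were chosen with earlier results of these data known. Named were all genes of the clock and output lists, called genes with the largest separate changes (also beside the lymphocyte covariate), the called or most abundant member of each other list, and the 5 smallest p-values in each direction of the difference between diets. Other genes were named after their values were seen. The number of libraries, 4 a group, and total counts of 15651928 to 29354303 set the precision. Promoter windows are RefSeq sequences of GRCm38.p6. For 2 of the 24 clock genes values are not reported here, although they remain in the counts over the list.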

Additional observations from a re-analysis of the deposited data

Results flagged for a closer look

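Among 104 groups of 4 libraries examined, 5 had 1 library far from the other 3, where chance gives about 1 in 20 groups. These were Per2 at 8 AM (8.69 CPM, the highest), Wee1 at 8 AM (4.07 CPM, the lowest), and at 8 PM Ciart (1.27 CPM, the lowest), Klf9 (92.1 CPM, the highest) and Klf15 (76.0 CPM, the highest).

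For 12 genes, picked from 1148 higher and 614 lower calls of edgeR, the log2 change from 8 AM to 8 PM differed between diets. They had the smallest p-values in edgeR's test of the difference or belonged to the clock and output lists. Genes with 0 counts in every TAN library at 8 PM were left out. A fit of the 16 libraries alone called 0 genes. The log2 difference, ad-lib minus TAN, was 3.33 for Lrrk2, 2.16 for Nbn, 1.51 for Srp72, 2.18 for Supt16, 2.33 for Arntl, 1.92 for Clock and 4.31 for Lonrf3. Lonrf3 was near the limit of detection in the TAN libraries at 8 PM, at 0, 0, 0.663 and 0.732 CPM, so its value is uncertain. The log2 difference was −2.18 for Etfbkmt, −1.86 for Wdr83os, −2.10 for Sertad1, −2.53 for Nmnat3 and −1.72 for Atp5g1.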

How the results depend on the processing

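Counts of calls at 8 PM against 8 AM in ad-lib, 1 higher and 0 lower, were 6 and 12 by DESeq2, 2 and 1 by limma voom, 1 and 2 with at least 10 counts in every library, and 207 and 228 at an unadjusted p. Higher calls were 0 with the 8 libraries alone, the TEC share covariate (TEC, the annotation's class of transcripts still to be checked), the erythrocyte covariate or without both 8 AM libraries 1 and 4. Leaving out 1 library gave 0 to 11 higher (11 without 8 AM library 2) and 0 to 5 lower (5 without 8 AM library 2 or 3). Nr1d2 ranged in adjusted p from 6.77e-05 (DESeq2) to 1 (without both 8 AM libraries 1 and 4).

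Calls of the difference between diets, 1148 higher and 614 lower, were 722 and 337 without a filter, 701 and 1022 with at least 10 counts in every library, 2453 and 392 by voom, 0 and 0 in the 16 libraries alone, 6 and 0 with the TEC covariate, 1926 and 923 with the lymphocyte covariate, and 2597 and 1288 at an unadjusted p. Lower calls were 1023 by DESeq2 and 1278 without both TAN 8 PM libraries 1 and 2. Leaving out 1 library gave 381 to 2260 higher and 113 to 1241 lower, lowest without ad-lib 8 AM library 4 and highest without library 2. The same-numbered libraries correlated at −0.10 to 0.37 in their deviations and are not paired by their labels. With the replicate block the difference had 1018 higher and 392 lower calls, and Nr1d2 1.73 (adjusted p 0.00737).

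Clock genes with separate groups stayed at 7 above, and at 2 below except 1 without scaling factors and 2 to 3 when 1 library was left out. Leaving out a library cannot lower these counts, because groups that are separate stay so. The 9 clock genes with separate groups kept their sign in 187 of 187 values, and the other 15 changed it in 38 of 315. The 9 were picked for separate groups in these same libraries, which favours a kept sign, so these counts say little of their stability. A change of sign was at first counted as a reversal for every gene. After the results were seen it was counted only where a call or an unadjusted p under 0.05 was involved, which left Hbb-bs with the erythrocyte covariate (0.051), itself a marker in that covariate. Uncalled genes changed sign in 126 of 1633 ad-lib values (37 of 78 genes) and 26 of 927 of the difference (9 of 32 genes). The cause of these changes was not tested. With 4 libraries a side, the median SE of 0.485 sets the precision.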
